A study of Homo sapiens with 5 samples.

Results

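The libraries of A549 cells carrying hairpin sh1196 and hairpin sh1088 were compared directly with each other, without the control. Both hairpins were made to deplete RBMS1, an RNA-binding protein, and the comparison asks what the sh1196 library shows that the sh1088 library does not. The members are the 10496 genes, of 58929 in the files, whose mean CPM (the expected count scaled to library depth) over both libraries was at least 5. The series holds 5 libraries of A549, an established human lung adenocarcinoma line, which its design text describes as profiles of ribosome footprints, although the labels also tell of fragmented input RNA. These are an sh control, the stable RBMS1 knockdown lines sh1088 and sh1196, a pCDH control and the line R1A with stable RBMS1 overexpression. Before lysis all 5 lines received cycloheximide (100 ug/mL, 15 min), and RNase I digested the lysates for 5 min. Each hairpin is 1 library, so no spread between libraries of the same hairpin can be measured and no p-value is given. Neither the target sites of the hairpins nor whether the lines are clones or pools is given in the labels used here. Intervals are exact 95% intervals of counting error alone: PCR copies of a molecule are not independent.

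As background, a footprint is the stretch of mRNA that a ribosome shields from nuclease, so a footprint count reflects both how much mRNA a gene has and how many ribosomes sit on it. A short hairpin RNA is cut into a small interfering RNA, whose guide strand steers an Argonaute protein to matching transcripts. Hairpins against the same target share that target but differ in guide sequence. A549 cells come from alveolar epithelium and are known for mucin, keratin and aldo-keto reductase expression. They carry inactive KEAP1, which leaves the antioxidant regulator NRF2 active.

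The libraries compared had 11739398 expected counts in sh1088 and 10327747 in sh1196, and the range over all 5 was 10327747 to 13980843. They differed in make-up, as the plot of gene classes shows. The share of nuclear protein-coding genes was 42.2% in sh1088 (exact binomial interval 42.2% to 42.3%) and 66.0% in sh1196 (66.0% to 66.1%). AL355075.4, a gene over RPPH1 (the RNA of RNase P), held 20.8% and 7.26%. Mitochondrially encoded mRNA held 18.0% and 8.41%. The mean fragment length, read from the gap between gene length and effective length, was 43.4 nt in sh1088 and 46.3 nt in sh1196. In the protein-coding share, sh1088 stood beside the sh control (37.7%), and sh1196 beside the pCDH control (66.3%) and R1A (62.3%). The part of these differences in the gene ratios below was not tested, beyond the alternative scalings given.

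**Figure D1:**
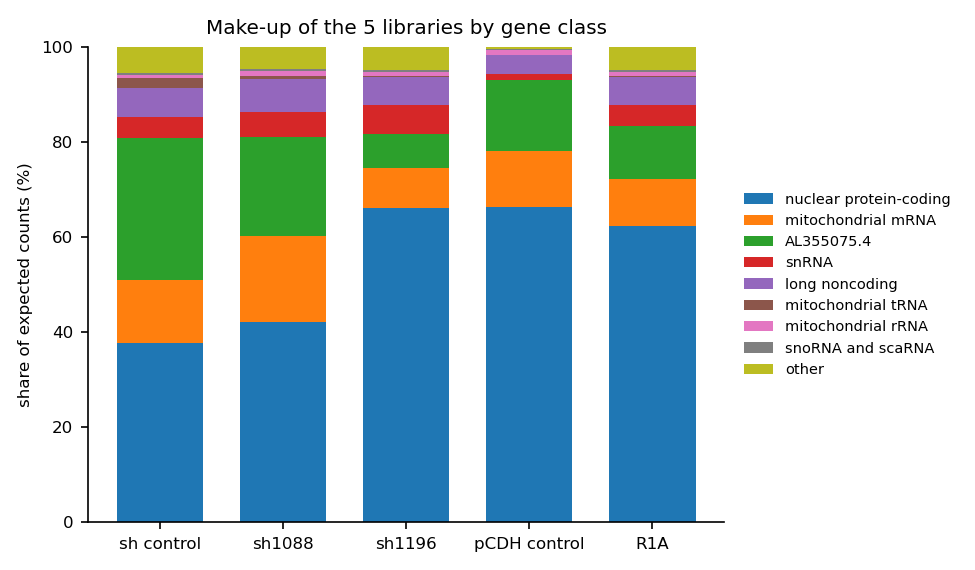
Share of expected counts (%, vertical axis from 0) taken by each gene class in the 5 libraries, 1 bar a library. Nuclear protein-coding genes take 42.2% in sh1088 and 66.0% in sh1196, and AL355075.4 and mitochondrial mRNA take less in sh1196.

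The labelled cell type was checked against its markers. Of 11 markers of A549 and alveolar epithelium, 8 passed the filter, with a summed CPM of 9402 in sh1088 and 9295 in sh1196, of which ALDH1A1, an aldehyde dehydrogenase, made up 5811 and 5507. The median log2 ratio of the 8 was -0.65, and 2 of them, EPCAM and AKR1C1, were at least 2-fold lower in sh1196. NKX2-1 had 0 counts in both libraries and SFTPB, a surfactant protein, had 0 and 1. None of the 8 fibroblast or 7 endothelial markers passed the filter, with a summed CPM in sh1196 of 3.59 and 0.156. DCN and POSTN, both fibroblast markers, had 0 counts in both libraries, as did VWF, TEK, KDR, ERG and CLDN5 of the endothelial markers. Of 9 immune markers only CD14 and CD68 passed, and PTPRC, the pan-leukocyte marker, had 0 counts in both. The summed CPM of the immune list was 34.8 in sh1088 and 69.7 in sh1196, of which CD68, a lysosomal protein, made up 22.3 and 57.5. Of 9 markers of kidney and neural lines 4 passed, with sums of 522 and 488, most of it UCHL1.

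Of the 10496 genes, 688 (6.55%) were at least 2-fold higher in sh1196 and 712 (6.78%) at least 2-fold lower, and 9096 (86.7%) lay between. The whole counting interval lay past 2-fold for 313 genes (2.98%) on the higher side and for 409 genes (3.9%) on the lower side. The interval of 6986 genes (66.6%) excluded equal levels. High counts make these intervals narrow, and they hold counting error alone and no spread between libraries. The median log2 ratio of sh1196 over sh1088 was 0.05, on the scale of TMM factors, which set most genes near equality. Scaling by total counts in place of TMM raised every ratio by 0.60 and turned the split of 688 higher and 712 lower into 3014 and 233. By that scaling 92.8% of the genes past 2-fold were higher in sh1196, against 49.1% by TMM. TMM over nuclear protein-coding genes gave 586 and 792. Values below are on the TMM scale and are read against the median of all genes, since a ratio between -0.60 and 0 changes sign when total counts set the scale. Total counts, DESeq2 size factors and protein-coding TMM each shift all ratios by the same amount, at most 0.60. No gene past 2-fold could therefore change sign with them. In TPM + 1, where genes shift by different amounts, 69 of the 712 lower genes changed sign, and 40 in FPKM + 1. None of the 688 higher genes did so in either. In bulk samples, fewer cells of a type and less RNA per cell cannot be told apart.

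**Figure D2:**
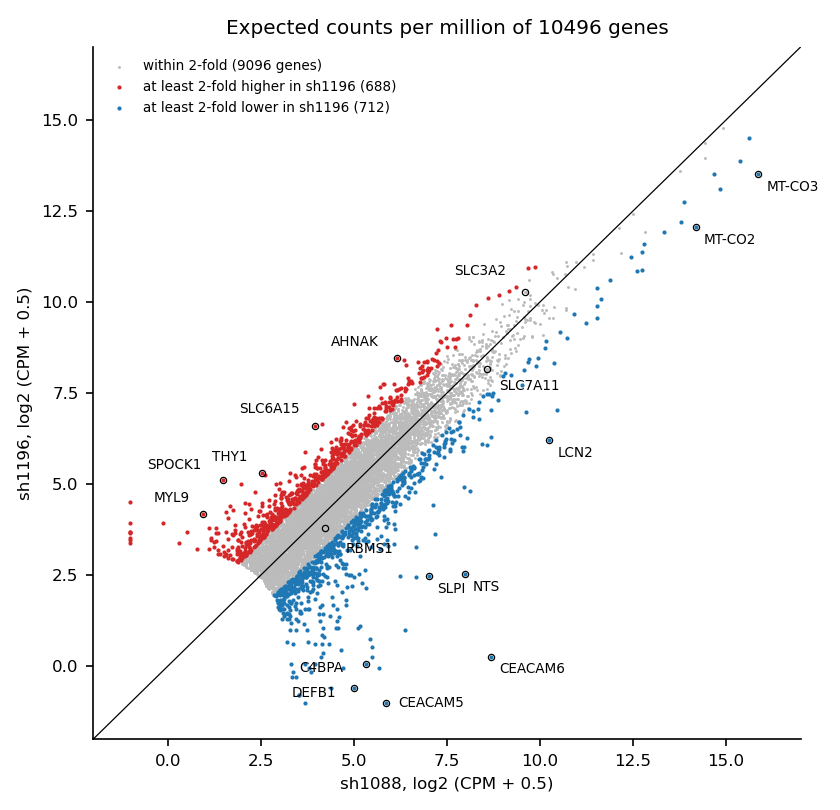
Level of each of 10496 genes in sh1088 (horizontal axis) and sh1196 (vertical axis), both as log2 (CPM + 0.5), with the line of equality. Red points (688) are at least 2-fold higher in sh1196 and blue points (712) at least 2-fold lower, and of the genes labelled, CEACAM6 lies farthest below the line.

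RBMS1 itself (ENSG00000153250.20, chromosome 2, 160272151 to 160493794, minus strand, GRCh38) was examined first, as the target of both hairpins. Its CPM was 18.2 (15.6 to 21.1) in sh1088 and 13.5 (11.6 to 15.7) in sh1196, beside 30.6 (26.9 to 34.7) for the sh control, 24.8 (22.5 to 27.3) for pCDH and 37.2 (33.8 to 40.9) for R1A. In CPM both hairpin libraries were below the other 3, but by the authors' TPM both were above the sh control, at 1.59, and below pCDH and R1A. The log2 ratio of sh1196 over sh1088 was -0.44 (95% counting interval -0.75 to -0.13), from 173 and 176 counts. By TPM the order of the hairpins was the other way, with sh1196 above sh1088 (3.70), where the median TPM + 1 ratio of all genes was 0.74. Scaled by total counts the RBMS1 ratio was 0.16, so which hairpin library had less RBMS1 depends on the scale. Its paralog RBMS2 stood at -0.80 (-1.06 to -0.55), with a CPM of 31.4 in sh1088 and 18.1 in sh1196, and RBMS3 was below the filter.

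The genes of cystine import and lipid peroxide defence were split between the hairpins. SLC7A11, the cystine antiporter, had a CPM of 381 in sh1088 and 284 in sh1196 (log2 ratio -0.43, -0.50 to -0.36). SLC3A2, its heavy chain, went the other way, from 770 to 1240 (0.68, 0.64 to 0.72). Neither reached 2-fold, and the SLC7A11 ratio was 0.17 by total counts and 1.35 in TPM + 1. GPX4, which reduces lipid peroxides, had a CPM of 122 in sh1088 and 80.6 in sh1196 (-0.60, -0.73 to -0.48), but its ratio was 0.41 in TPM + 1 and about 0 by total counts. EIF3D, a subunit of initiation factor 3, stood at 0.27 (0.11 to 0.43). FTH1, the iron-storing ferritin heavy chain, had 18567 and 10376 counts and a ratio of -1.25 (-1.29 to -1.22), and the light chain FTL stood at -0.76. DHODH, a mitochondrial enzyme of pyrimidine synthesis, was higher at 1.37 (0.92 to 1.84). Of the 13 ferroptosis suppressors compared, DHODH was the member past 2-fold upward and FTH1 the member past it downward, and none of the 12 ferroptosis promoters or the 9 cystine and glutathione genes passed 2-fold.

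The most extreme ratios belonged to genes with few counts in sh1196, several of which encode secreted or surface proteins of secretory epithelium. CEACAM6 (ENSG00000086548.9, chromosome 19, 41750977 to 41772208, plus strand), a glycoprotein of the epithelial surface, had 3981 counts in sh1088 and 9 in sh1196. That is a log2 ratio of -9.20 (-10.33 to -8.28), or 589.6-fold lower. Its CPM was 412 in sh1088 and 0.703 in sh1196, beside 132 in the sh control, 153 in pCDH and 60.1 in R1A, so sh1196 stood below all other libraries. CEACAM5 (ENSG00000105388.15, 41708585 to 41729798 on the same chromosome and strand), the carcinoembryonic antigen, had 559 counts in sh1088 and 0 in sh1196. With the 0 set to the floor of 3 counts CEACAM5 came out 248-fold lower, and the bound of its log2 interval nearest to 0 was -7.65. R1A was also low for CEACAM5, with a CPM of 0.509, against 15.9 in the sh control and 14.3 in the pCDH control. Both genes overlap AC243967.1, and the sum over these 3 genes was 4616 counts in sh1088 and 10 in sh1196. CEACAM1, the other member of the family compared, stood at -2.90 (-3.54 to -2.32), while 9 of the 12 CEACAM genes in the files were below the filter.

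Among protein-coding genes that overlap no neighbour on their strand, the 14 that ranked lowest by the interval bound nearest to 0 were DEFB1, TM4SF20, NTS, C4BPA, FGB, MAL2, HGD, SLPI, S100P, GDA, LCN2, IGFN1, FAM110B and GPC6. DEFB1 (ENSG00000164825.4, chromosome 8, 6870575 to 6878022, minus strand), an antimicrobial defensin of epithelia, had 305 counts in sh1088 and 2 in sh1196 (log2 ratio -7.67, -10.72 to -5.80). Its CPM was 31.5 in sh1088, 7.13 in the sh control and between 0.156 and 1.10 in sh1196, the pCDH control and R1A, so here sh1088 stood apart from the other 4. NTS (ENSG00000133636.11, chromosome 12, 85874295 to 85882992, plus strand), the precursor of the peptide neurotensin, had 2431 counts and 67 (-5.60, -5.97 to -5.25). Its CPM was 251 in sh1088 and 5.23 in sh1196, beside 239 in the sh control, 113 in pCDH and 22.7 in R1A. For NTS it was sh1196 that stood apart.

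TM4SF20, a tetraspan membrane protein (chromosome 2, 227362156 to 227381995), had 493 counts in sh1088 and 6 in sh1196 (-6.78, -8.23 to -5.64). HGD, an enzyme of tyrosine breakdown, had 246 and 6 (-5.77, -7.23 to -4.63), and GPC6, a cell-surface proteoglycan, had 100 and 4 (-5.06, -6.96 to -3.66). In TM4SF20, HGD and GPC6 the 4 libraries other than sh1196 had a CPM of at least 10.3 and sh1196 at most 0.469. SLPI, an antiprotease of mucosal fluid, had 1240 and 65 counts (-4.67, -5.05 to -4.31). S100P, a calcium-binding protein, had 986 and 64 (-4.36, -4.75 to -3.99). LCN2, a secreted iron-siderophore binder, had 11721 and 945 (-4.05, -4.14 to -3.95). Its CPM was 1212 in sh1088 and 73.8 in sh1196, beside 236 in the sh control, 70.3 in pCDH and 402 in R1A, so that sh1088 was the highest library and the pCDH control was as low as sh1196. C4BPA, a complement regulator, had 380 and 7 counts (-6.18, -7.50 to -5.12), and MAL2, a membrane-traffic protein, had 106 and 1 (-7.14, -12.46 to -4.63). GDA, IGFN1 and FAM110B lay between -4.85 and -4.44.

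**Figure D3:**
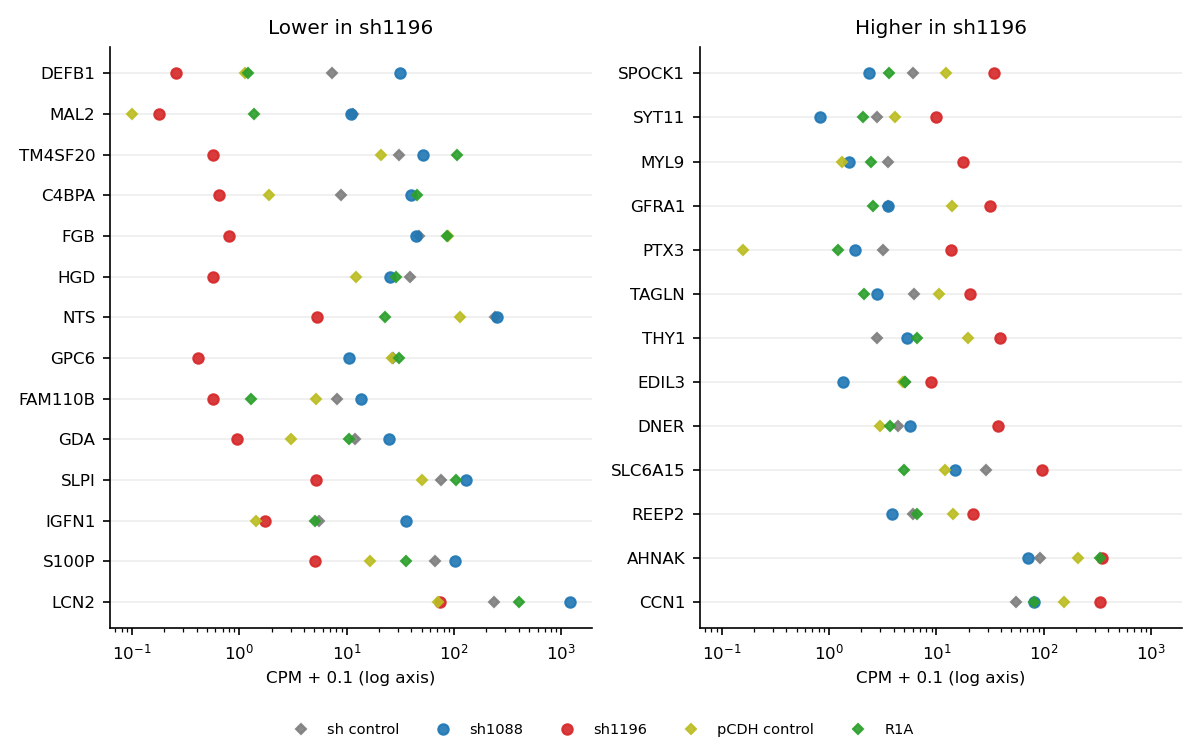
CPM + 0.1 (log axis) of the 14 lowest ranked and 13 of the 14 highest ranked protein-coding genes in the 5 libraries, 1 point a library. In the left panel sh1196 (red circle) is the lowest library for 11 genes and the pCDH control for MAL2, LCN2 and IGFN1, and in the right panel sh1196 lies farthest right in every row. The genes were ranked by the ratio of sh1196 to sh1088, which favours sh1196 at the end of a row.

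Gene families were then followed by symbol, a choice made after values had been seen. All 3 fibrinogen chains, which are clotting proteins of liver that A549 cells also secrete, were lower in sh1196. FGB had 426 and 9 counts (-5.98, -7.12 to -5.04), FGG 220 and 32 (-3.20, -3.78 to -2.66) and FGA 270 and 51 (-2.82, -3.28 to -2.38). The CPM in sh1196 was at most 3.98 for any chain and in the other libraries at least 22.8. All 5 mucins that passed the filter, of 17 in the files, were also at least 2-fold lower, against 6.78% of all genes. MUC16 and MUC3A had a CPM of 0.703 and 2.19 in sh1196, so they passed the filter only through sh1088, as did the fibrinogen chains. Such members could only come out lower, so these counts are partly set by the filter. MUC5B, a gel-forming mucin of airway mucus, had a CPM of 145 in sh1088 and 11.9 in sh1196, beside 224 in the sh control, 224 in pCDH and 271 in R1A (log2 ratio -3.62, -3.87 to -3.38). MUC5AC, its neighbour on chromosome 11, stood at -3.47 (-3.76 to -3.20) and MUC16 at -4.59 (-5.75 to -3.63). MUC3A stood at -2.07 and MUC13 at -1.62, and by the authors' TPM MUC13 was 3.77 in sh1088 and 3.98 in sh1196, the other direction. TFF1, a trefoil peptide released with mucus, had 146 and 13 counts (-3.90, -4.85 to -3.09). AGR2, a disulfide isomerase needed for mucin folding, had 7604 and 1619 (-2.65, -2.72 to -2.57).

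The aldo-keto reductases were divided. AKR1C1, AKR1C2 and AKR1C3, reductases of steroids and carbonyls encoded side by side on chromosome 10, stood at -2.04 (-2.16 to -1.92), -1.27 (-1.32 to -1.22) and -1.41 (-1.45 to -1.36). Their sequences are close copies, so counts may be shared among them. AKR1C1 had a CPM of 241 in sh1088 and 59.0 in sh1196, beside 327 in the sh control, 66.4 in pCDH and 329 in R1A. AKR1B1, the aldose reductase on chromosome 7, was higher in sh1196 at 1.10 (1.06 to 1.13). Of the 25 NRF2 targets compared, 4 (16.0%, against 6.78% of all genes) were at least 2-fold lower, namely the AKR1C genes and SRXN1, and none higher. The list median was -0.34 against 0.05 for all genes. By total counts 2 were at least 2-fold lower and 4 higher, with a list median of 0.26 where all genes had 0.65. In TPM + 1 none was lower and 7 were higher, with a list median of 0.62 where all genes had 0.74. GPX2, a selenoprotein of epithelia and another gene of oxidative defence, had 2697 and 355 counts (-3.34, -3.50 to -3.18). It was the member past 2-fold among 17 selenoproteins, whose median was -0.53. That median became 0.04 once the trend with coding length, described below, was taken out.

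S100P, S100A6 and S100A9 were the 3 of 9 S100 proteins past 2-fold, all lower, where 6.78% of all genes were. The other 6 lay between -0.90 and -0.61. S100A9, with a CPM of 0.312 in sh1196, passed the filter only through sh1088, so it could only come out lower. S100P had a CPM of 5.00 in sh1196, at the level of the filter. S100A6 is abundant, with 28610 and 17016 counts (-1.16, -1.19 to -1.14). UGT1A9, a glucuronosyl transferase, had 197 and 2 counts (-7.04, -10.09 to -5.16). The UGT1A genes share all exons but the first, so reads can be split among them, and their sum was 425 counts in sh1088 and 49 in sh1196 (-3.53, -3.99 to -3.10). IGFBP1 and IGFBP3, neighbours on chromosome 7 that bind insulin-like growth factors, stood at -1.96 (-2.08 to -1.85) and -1.39 (-1.51 to -1.28). IGFBP4 stood at 1.63 (1.57 to 1.69) and IGFBP6 was also at least 2-fold higher, so members of that family lay past 2-fold on both sides.

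Part of the interferon response, the antiviral programme, was lower in sh1196. Of 39 genes listed, 26 passed the filter, and 10 of these (38.5%, against 6.78% of all genes) were at least 2-fold lower in sh1196 and none higher. The list median was -0.48, with 22 of 26 members below the median of all genes. By total counts 6 of 26 were at least 2-fold lower and 2 higher, with a list median of 0.12 where all genes had 0.65. Interferon acts through the factor ISGF3, which binds the interferon-stimulated response element. The core letters of that element, GAAANNGAAA, were searched on both strands in the 250 bases before the RefSeq start (GRCh38.p14) of the 10 genes. IFITM2 had no entry. Of the other 9, 6 held a match, as did 4 of the 12 other compared members with an entry. The letters were held by 3.02% of all 35116 RefSeq promoters of that length. The stretches with the matches are printed so that the element can be seen beside each gene's ratio, in lower case with each match (either strand) in capitals, 5′ to 3′ on the strand of the gene.
IFI27, chr14:94110594-94110683, plus strand: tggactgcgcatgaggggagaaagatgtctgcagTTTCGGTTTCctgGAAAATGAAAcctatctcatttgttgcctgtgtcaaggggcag
IFITM1, chr11:313950-314039, plus strand: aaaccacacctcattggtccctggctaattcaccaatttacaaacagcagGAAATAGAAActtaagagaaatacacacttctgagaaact
ISG20, chr15:88638907-88638996, plus strand: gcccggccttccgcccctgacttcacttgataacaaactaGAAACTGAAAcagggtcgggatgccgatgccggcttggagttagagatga
IFI6, chr1:27672268-27672357, minus strand: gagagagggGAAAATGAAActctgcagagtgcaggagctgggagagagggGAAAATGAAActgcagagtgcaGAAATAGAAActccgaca
ISG15, chr1:1013347-1013436, plus strand: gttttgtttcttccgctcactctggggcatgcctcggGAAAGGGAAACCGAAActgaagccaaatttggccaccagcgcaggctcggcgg
IFITM3, chr11:320861-320950, minus strand: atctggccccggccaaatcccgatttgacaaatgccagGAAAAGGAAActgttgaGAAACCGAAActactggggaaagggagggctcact

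A match is a description of the letters and not a site shown to be bound. IFI27, an interferon-induced membrane protein with 2 matches, had 120 counts in sh1088 and 7 in sh1196 (log2 ratio -4.51, -5.86 to -3.43). IFITM1, which blocks viral fusion at membranes and holds 1 match, had 166 and 17 (-3.70, -4.52 to -2.98). ISG20, an exonuclease of viral RNA with 1 match, had 125 and 19 (-3.13, -3.91 to -2.43). All 3 were high in the sh control, at a CPM of 14.5, 13.6 and 16.7, and low in sh1196, at 0.547, 1.33 and 1.48. They passed the filter of 5 only through sh1088, so they could only come out lower. The count of lower members in the list is thus partly set by the filter. IFI6, with 3 matches, had a CPM of 60.4 in sh1088 and 9.37 in sh1196, beside 8.29 in pCDH, 20.4 in R1A and a level between R1A and sh1088 in the sh control (-2.70, -2.99 to -2.41). ISG15, the ubiquitin-like modifier, stood at -1.61 (-2.08 to -1.16), and IFITM3 at -1.43 (-1.78 to -1.08). The pCDH control was below sh1196 for IFI27 and IFI6 but not for IFITM3, whose CPM was 8.12 in sh1196 and 20.9 in pCDH.

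OAS1, the sensor of double-stranded RNA that makes 2-5A, had 354 and 56 counts (-3.07, -3.51 to -2.66) and no match in its window. OAS1 too passed the filter only through sh1088 and could only come out lower. IFI35 stood at -1.37 (-1.66 to -1.08) and IRF9, the DNA-binding part of ISGF3, at -1.14 (-1.43 to -0.85), also without a match, and IFITM2 stood at -1.46 (-1.67 to -1.24). STAT2, which joins IRF9 in ISGF3, stood at 0.05 (-0.26 to 0.36). TAP1, a peptide transporter of antigen presentation, stood at 0.68 (0.42 to 0.95), and HLA-B and HLA-C, which present antigen, stood at 0.27 and 0.00. EIF2AK2, the kinase PKR, stood at -0.44 (-0.57 to -0.31). Members past 2-fold thus sat beside members near equality within the same list. The list's median coding length was 1101 bases against 1407 for all protein-coding genes. With the coding length trend taken out, 8 of 26 were at least 2-fold lower, and the list median was -0.68.

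Mitochondrially encoded mRNA, which encodes core subunits of the respiratory chain and is translated by ribosomes inside mitochondria, was lower in sh1196 for 13 of 13 genes, each by at least 2-fold on the TMM scale. The median log2 ratio was -1.65 and the range -2.37 to -1.13. By total counts 7 of 13 were at least 2-fold lower (median -1.05) and in TPM + 1 2 of 13 (median -0.88). MT-CO3 had a CPM of 59696 in sh1088 and 11628 in sh1196, beside 40048 in the sh control, 8040 in pCDH and 19114 in R1A. MT-CO2 had 18583 in sh1088 and 4234 in sh1196, beside 20301 in the sh control, 6367 in pCDH and 4840 in R1A. For both genes the sh control and sh1088 were the high libraries and the other 3 the low ones. MT-ND4, the least different, stood at -1.13 (-1.15 to -1.12), and sh1196 was the lowest of the 5 libraries for 12 of the 13. Respiratory chain subunits made in the cytosol differed less: 5 of 48 (10.4%, against 6.78% of all genes) were at least 2-fold lower and 1 higher. Their median was -0.23. COX7C stood at -1.56 (-1.64 to -1.49) and SDHA, a subunit of complex II, at 1.25 (0.98 to 1.53). With the coding length trend taken out, 0 of 48 were at least 2-fold lower and SDHA alone was higher.

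Small structured RNA was also lower. Of the 7 that passed the filter, of 14 listed, 5 (71.4%, where 6.78% of all genes were) were at least 2-fold lower, against 1 by total counts or in TPM + 1. RMRP, the RNA of RNase MRP, had 481222 counts in sh1088 and 295312 in sh1196 (-1.12, -1.13 to -1.11), and RN7SL3, of the signal recognition particle, stood at -2.03. RPPH1 stood at -0.17, but it shares its locus with AL355075.4 at -2.12. Summed over both, the locus had 2737533 and 1106013 counts (-1.72, -1.73 to -1.72). The snoRNA host genes, noncoding transcripts whose introns hold snoRNA, had a median of -0.62. On the TMM scale 4 of 20 (20.0%, against 6.78% of all genes) were at least 2-fold lower and none higher. By total counts 1 was lower and 1 higher, with a median of -0.02 where all genes had 0.65. In TPM + 1 none was lower and 2 were higher, with a median of 0.08 where all genes had 0.74. DANCR stood at -1.84 (-2.13 to -1.55) and SNHG16 at -1.56 (-1.76 to -1.37). OIP5-AS1 and NORAD, both long noncoding RNA, stood at -1.62 (-1.78 to -1.46) and -1.61 (-1.78 to -1.44), and MALAT1 at -0.51. Among all 255 long noncoding genes compared, 66 were at least 2-fold lower and 8 higher on the TMM scale, where 6.78% and 6.55% of all genes were.

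In the other direction, 13 of the 14 highest ranked protein-coding genes were SPOCK1, MYL9, SYT11, GFRA1, THY1, SLC6A15, TAGLN, DNER, PTX3, AHNAK, REEP2, EDIL3 and CCN1, several of which encode matrix, adhesion or contractile proteins. SPOCK1 (ENSG00000152377.14, chromosome 5, 136975298 to 137598379, minus strand), a matrix proteoglycan, had 22 counts in sh1088 and 440 in sh1196 (log2 ratio 3.91, with 3.29 as the lower bound). Its CPM was 2.28 in sh1088 and 34.4 in sh1196, beside 5.90 in the sh control, 12.2 in pCDH and 3.48 in R1A. MYL9, the regulatory light chain of smooth muscle and non-muscle myosin, had 14 and 225 counts (3.59, 2.82 to 4.49). TAGLN, the actin-binding protein transgelin, had 26 and 263 (2.92, 2.34 to 3.56), with a CPM of 20.5 in sh1196 and at most 10.5 elsewhere. In these 13 genes sh1196 was the highest of the 5 libraries. They were ranked by the ratio of sh1196 to sh1088, which favours sh1196 as the highest library. SPOCK1, MYL9, SYT11, GFRA1, TAGLN, PTX3, REEP2 and EDIL3 had a CPM below 5 in sh1088, so they passed the filter only through sh1196.

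GFRA1, a receptor for the growth factor GDNF, had 33 and 402 counts (3.19, 2.68 to 3.75), and THY1, a surface glycoprotein of fibroblasts and neurons, 51 and 499 (2.88, 2.46 to 3.32). SLC6A15, a transporter of neutral amino acids, had a CPM of 14.9 in sh1088 and 96.2 in sh1196, beside 11.9 in pCDH, 4.92 in R1A and a level between both hairpins in the sh control (2.68, 2.43 to 2.94). It lies on chromosome 12 at 84859488 to 84913615, as does NTS at 85874295, whose ratio had the other sign. PTX3, a soluble pattern recognition protein, had 16 and 172 counts (3.01, 2.27 to 3.85). SYT11, DNER, REEP2 and EDIL3 lay between 2.56 and 3.77. CCN1, a matrix protein induced by YAP and serum, had 788 and 4320 (2.04, 1.93 to 2.15). AHNAK, a very large scaffold protein, had 690 and 4508 (2.29, 2.18 to 2.41), but its CPM in R1A, at 334, was close to the 352 of sh1196.

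Of the 27 mesenchymal and matrix genes that passed the filter, of 37 listed, 13 (48.1%, against 6.55% of all genes) were at least 2-fold higher in sh1196 and none lower. The median was 0.98, and 25 of 27 lay above the median of all genes. High members were LOXL2, a collagen cross-linking oxidase, at 1.94 (1.81 to 2.08), COL6A1 at 1.88 (1.55 to 2.23) and AXL, a receptor kinase, at 1.87 (1.76 to 1.99). LOXL2 had a CPM of 55.9 in sh1088 and 216 in sh1196, beside 40.1 in the sh control, 193 in pCDH and 63.4 in R1A. CDH2, the N-cadherin of mesenchymal junctions, stood at 1.67 (1.48 to 1.86) and ZEB2, a repressor of E-cadherin, at 1.53 (0.89 to 2.21). VIM stood at 0.60 (0.55 to 0.64) and FN1 at 0.17 (0.09 to 0.25). SPARC, a matrix glycoprotein, and S100A4 were below equality, at -0.79 and -0.82. Matrix genes are long, with a median coding length of 3057 bases, and with the coding length trend taken out 9 of 27 were past 2-fold and the median was 0.73.

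Integrins and actomyosin genes, which couple the matrix to the contractile cytoskeleton, had a median of 0.88. Of the 34 compared, 16 (47.1%, against 6.55% of all genes) were at least 2-fold higher and 2 (5.88%, against 6.78%) lower. MYL9, TAGLN and ITGA1 had a CPM of 1.45, 2.69 and 3.62 in sh1088 and passed the filter only through sh1196. Such members could only come out higher, so the count of higher members is partly set by the filter. FLNA, an actin cross-linker, had a CPM of 194 in sh1088 and 660 in sh1196, beside 360 in the sh control, 429 in pCDH and 669 in R1A (1.75, 1.68 to 1.83). MYH9, the heavy chain of non-muscle myosin, was at least 2-fold higher, and ITGB1, the common beta chain of integrins, at 1.25 (1.21 to 1.29) with 7847 and 24880 counts. Among integrin chains of all kinds 8 of the 12 compared were at least 2-fold higher, against 6.55% of all genes. These include ITGA1 and also ITGA4, which had a CPM of 2.79 in sh1088 and likewise passed only through sh1196. ITGAE and ITGB8 lay below equality at -0.75 and -0.72. Laminin chains had 6 of 7 at least 2-fold higher, again against 6.55% of all genes, with LAMB3 at -0.54 as the other member. The 2 members past 2-fold downward were TMSB4X and TMSB10, the beta thymosins that hold actin monomers, at -2.07 (-2.12 to -2.02) and -1.25 (-1.31 to -1.18). ACTB and ACTG1, the actins, stood at -0.11 and 0.12. With the coding length trend taken out, 7 of 34 were at least 2-fold higher and 2 lower, and the beta thymosins, with 132 coding bases each, moved to -1.11 and -0.28.

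Of 25 epithelial and junction genes compared, 3 (12.0%, against 6.78% of all genes) were at least 2-fold lower and 1 (4.0%, against 6.55%) higher. The list median was -0.09. After the coding length trend was taken out, 5 were at least 2-fold lower and none higher, with a median of -0.37. EPCAM, an epithelial adhesion protein, had 160 and 33 counts (-2.69, -3.28 to -2.14), CLDN2, a pore-forming claudin, 498 and 113 (-2.55, -2.86 to -2.26), and CD24 848 and 309 (-1.87, -2.06 to -1.68). EPCAM was low in the sh control as well, at a CPM of 5.29, against 16.5 in sh1088 and 2.58 in sh1196. E-cadherin, CDH1, stood at 0.42 (0.26 to 0.59), DSP, the desmosome linker, at 0.01 and KRT7 at 0.87 (0.84 to 0.91). KRT8 and KRT18, partner keratins, stood at -0.70 and -0.60.

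**Figure D4:**
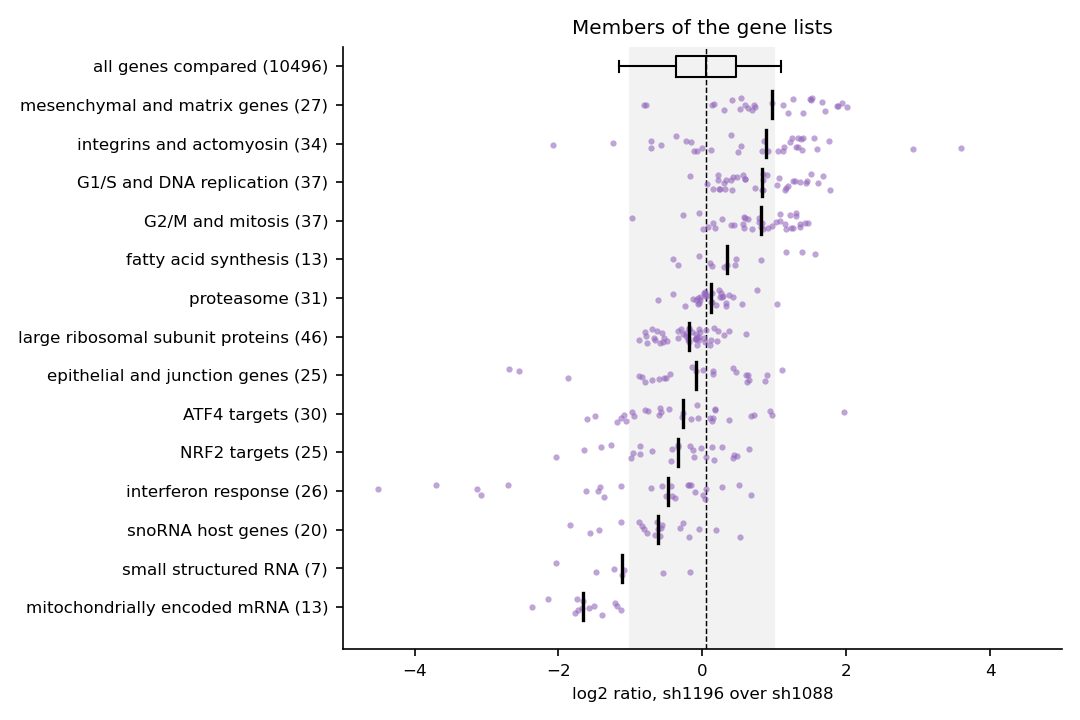
Log2 ratio of sh1196 over sh1088 for the compared members of 14 gene lists (points, with the number of members in brackets) and their medians (black bars), under a box for all 10496 genes (median, quartiles, whiskers at the 5th and 95th percentile). Grey marks less than 2-fold and the dashed line the median of all genes, 0.05. Matrix, actomyosin and cell cycle lists lie to the right, with medians from 0.82 to 0.98, and mitochondrially encoded mRNA to the left at -1.65.

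Many cell cycle genes were higher in sh1196. Of 37 genes of G1/S and DNA replication, 14 (37.8%, against 6.55% of all genes) were at least 2-fold higher and none lower. The median was 0.83, and 36 of 37 lay above the median of all genes. The MCM helicase, which unwinds DNA at replication forks, included MCM6 at 1.78 (1.55 to 2.01), MCM4 at 1.67 and MCM3 at 1.51 (1.28 to 1.74). MCM6 had a CPM of 20.5 in sh1088 and 70.6 in sh1196, beside 12.9 in the sh control, 42.6 in pCDH and 84.8 in R1A. The sh control and sh1088 were thus the low libraries. LIG1, the replicative DNA ligase, stood at 1.46 (1.21 to 1.71), while PCNA, the sliding clamp, stood at 0.42 (0.31 to 0.54) and RRM2, of nucleotide supply, at 0.25.

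Of 37 genes of G2/M and mitosis, 14 (37.8%, against 6.55% of all genes) were at least 2-fold higher and none lower, with a median of 0.82. The summed CPM of the list was 1423 in sh1088 and 2379 in sh1196, beside 1216 in the sh control, 1987 in pCDH and 2934 in R1A, so R1A was above sh1196, which was the highest library for 7 of 37. TPX2, a spindle assembly factor, stood at 1.47 (1.33 to 1.61), PLK1, a mitotic kinase, at 1.36 (1.15 to 1.57) and TOP2A, which untangles chromosomes, at least 2-fold higher. CENPA, the centromeric histone, stood at -0.97 and BIRC5 at -0.27, and both have short coding sequences. With the coding length trend taken out, 8 of 37 replication genes and 4 of 37 mitotic genes were at least 2-fold higher, with medians of 0.64 and 0.57. Replication-dependent histones, made in S phase, had few members past 2-fold: 1 of 18 was at least 2-fold higher and 2 lower, with HIST1H2AM at 1.04 and HIST1H1C at -1.66. Histone genes are near copies of each other, so their counts are uncertain.

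Of 30 ATF4 targets, genes of the integrated stress response, 6 (20.0%, against 6.78% of all genes) were at least 2-fold lower and 1 higher. By total counts 1 was lower and 5 were higher, with a list median of 0.33 where all genes had 0.65. In TPM + 1 none was lower and 8 were higher, with a list median of 0.38 where all genes had 0.74. Of all 10496 genes, 3014 were at least 2-fold higher by total counts and 3384 in TPM + 1. CEBPG, a partner of ATF4, stood at -1.49 (-1.62 to -1.36), TRIB3 at -1.19 and DDIT4 at -1.14, and STC2, a secreted glycoprotein, at 1.96 (1.83 to 2.10). Of 30 immediate early genes 6 (20.0%, against 6.78%) were also at least 2-fold lower, and 2 (6.67%, near the 6.55% of all genes) higher. FOS stood at -1.64 (-1.85 to -1.44), NR4A1 at -1.36 and DUSP5 at -1.39, whereas the YAP targets CCN1 and CCN2 stood at 2.04 and 1.13. FOS had a CPM of 67.8 in sh1088 and 21.9 in sh1196, beside 43.9 in the sh control, 78.3 in R1A and a higher level still in pCDH, so sh1196 was the lowest. The NF-kB list had shares past 2-fold near those of all genes and a median of 0.003. Of 21 NF-kB genes 2 (9.52%) were past 2-fold on each side, with CSF1 and IL6 at 1.69 and 1.40 and LCN2 and BIRC3 at -4.05 and -1.29. IL6 had a CPM of 55.9 in sh1196 and 2.02 to 25.2 in the other libraries. The 26 heat shock chaperones had a median of 0.46, with 18 above the median of all genes. With the coding length trend taken out the median was 0.25. HSPA4L and HSP90AA1 (7.69% of the list, against 6.55% of all genes) stood at 1.46 and 1.12, and 3 (11.5%, against 6.78%) were at least 2-fold lower. These were HSPA1A and HSPA1B, which are near copies, and CHORDC1, a co-chaperone that was higher by the authors' TPM and FPKM. Of 22 genes of the unfolded protein response SEC61B, a subunit of the translocon, was at least 2-fold lower and none higher.

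In metabolism, 3 of 13 genes of fatty acid synthesis (23.1%, against 6.55% of all genes) were at least 2-fold higher. These were ACLY at 1.56 (1.48 to 1.65), FASN at 1.39 (1.24 to 1.53) and ACACA at 1.16 (0.98 to 1.34). All encode long enzymes, and with the coding length trend taken out 1 of 13 was past 2-fold. HK1 and PFKP, of early glycolysis, stood at 1.73 and 1.16, the members past 2-fold among 16 glycolytic genes (12.5%, against 6.55% of all genes). None of 22 genes of cholesterol synthesis passed 2-fold, with a median of 0.29. EGLN1 and NDRG1 of the hypoxia response stood at -1.38 and -1.27, and none of 15 was at least 2-fold higher.

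The protein synthesis and turnover machinery was mostly within 2-fold. Large ribosomal subunit proteins had 0 of 46 past 2-fold and small subunit proteins 1 of 29, which was FAU at -1.06, and their medians were -0.18 and -0.33. Without the coding length trend these medians were 0.19 and 0.06, and those of mitochondrial ribosomal proteins, cytosol-made respiratory subunits and histones, all below 0 before, were 0.12, 0.05 and 0.08. Mitochondrial ribosomal proteins had 1 of 68, MRPS17 at -1.10 (-1.62 to -0.60), from 87 and 54 counts. Cytosolic aminoacyl-tRNA synthetases had a median of 0.44 with QARS at 1.05 past 2-fold, and the proteasome a median of 0.13 with PSMD2 at 1.04. EIF1 and EIF4B, initiation factors, stood at -1.29 and -1.40 and were the 2 of 39 translation factors past 2-fold. None of 32 hnRNP and SR splicing proteins passed. p53 targets had 1 of 23, FDXR at 1.16. Of the RNA interference machinery that processes hairpins, XPO5, the exporter of hairpin precursors, stood at 1.19 (0.99 to 1.39), AGO2, the slicing Argonaute, at -0.59 (-0.83 to -0.36) and DICER1 at 0.19 (-0.07 to 0.45). The other members of that list lay within 2-fold.

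Ratios followed coding length across genes. Over 9981 nuclear protein-coding genes Spearman's rho between coding length and the log2 ratio was 0.42, as a description across genes that share the same 2 libraries and are not independent replicates. It was 0.11 for GC content of the transcript and 0.03 for mean CPM. When genes were cut into 10 groups by coding length, in the shortest group (75 to 540 coding bases) the median was -0.48, and 17.7% of genes were at least 2-fold lower and 1.68% higher. In the longest group (3588 bases and above) it was 0.46, with 2.81% lower and 16.95% higher. With this trend taken out, 352 genes in place of 669 were at least 2-fold higher, and 39.1% of those past 2-fold were higher. NTS moved from -5.60 to -5.24, LCN2 from -4.05 to -3.78 and FGB from -5.98 to -6.14. Short genes moved more, with COX7C going from -1.56 to -0.76 and EIF1 from -1.29 to -0.78, both to within 2-fold. AHNAK, with 17670 coding bases, moved from 2.29 to a lower ratio that was still past 2-fold. The same rho was 0.38 for sh1196 over the sh control, -0.002 over the pCDH control and -0.07 over R1A. It was 0.09 for sh1088 over the sh control, -0.28 over the pCDH control and -0.48 over R1A. The part of coding length in the list results was not tested beyond the values given with its trend taken out.

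**Figure D5:**
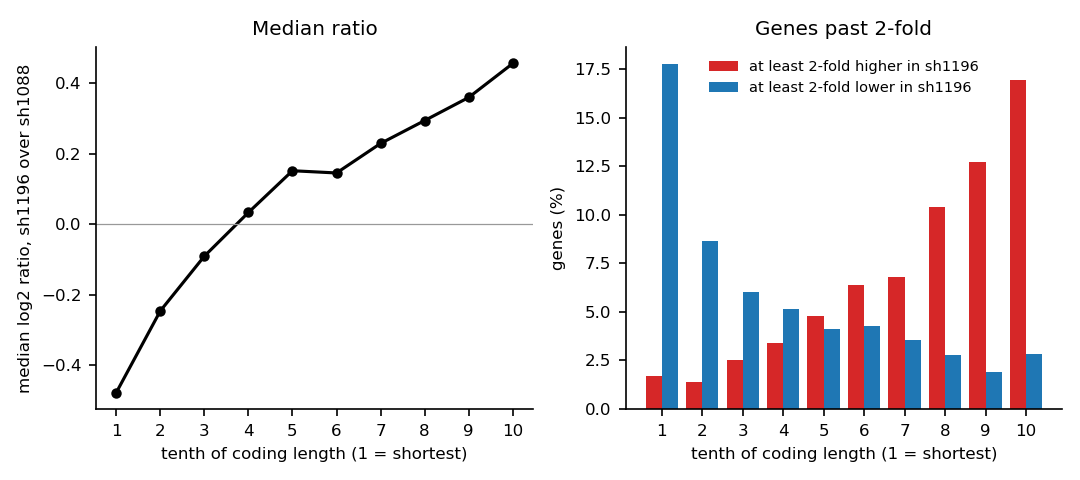
Nuclear protein-coding genes (9981) in 10 near-equal groups by coding length, shortest at 1. The left panel gives the median log2 ratio of sh1196 over sh1088, from -0.48 to 0.46, and the right panel the share of genes (%) at least 2-fold higher (red) or lower (blue) in sh1196.

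Some of the largest ratios sat at loci whose genes share reads. Of the 10 genes with 0 counts in 1 library, 8 were at 0 in sh1088 and 2 in sh1196. AL049629.2 had 0 and 284 counts. With the 0 set to the floor of 3 counts it came out 71.0-fold higher, with a lower log2 bound of 5.84. It overlaps CD59, however, an inhibitor of complement lysis. Summed over AL049629.2, CD59 and C11orf91 the counts were 1848 and 2215 (-0.15, -0.24 to -0.06). DNAAF4-CCPG1, a readthrough of DNAAF4 and CCPG1, had 0 and 189 counts, and the 3 genes together 1669 and 1627 (-0.45, -0.55 to -0.35). AC002996.1, over ALDH2 and ACAD10, had 0 and 158, and the sum was 1209 and 1499 (-0.10, -0.21 to 0.01). AL035078.4, over RCN1, also had 0 and 158, and with RCN1 the counts were 490 and 736 (0.17, 0.01 to 0.34). The snoRNA SNORA50A has a pair of identifiers at the same place: the first had 0 and 155 counts and the second 119 and 0, and the sum was 119 and 155 (-0.03, -0.39 to 0.32). At these 5 loci the summed counts thus lay within 2-fold, whereas at the CEACAM and UGT1A loci the sums were more than 2-fold lower. In all, 3735 of the 10496 genes overlap another gene on their strand.

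The other 3 libraries, which did not enter the ratio, were set beside the 2 hairpins. Of the 688 genes at least 2-fold higher in sh1196, the sh control lay nearer to sh1088 on the log2 scale for 579 (84.2%) and nearer to sh1196 for 109. Of the 712 lower genes it lay nearer to sh1088 for 607 (85.3%). The pCDH control lay nearer to sh1196 for 471 (68.5%) of the higher and 459 (64.5%) of the lower genes, and R1A for 433 (62.9%) and 388 (54.5%). The level of sh1196 was outermost of all 5 libraries, in the direction of the ratio, for 309 (44.9%) of the higher and 374 (52.5%) of the lower genes. The level of sh1088 was at the opposite end for 342 (49.7%) of the higher and 243 (34.1%) of the lower genes. The genes were chosen by the ratio of these libraries, which favours both ends. Across the 9981 protein-coding genes Pearson's r of log2 CPM was 0.94 between sh1088 and the sh control, 0.89 between the 2 hairpins and 0.84 between sh1196 and the sh control. R1A gave 0.92 with sh1196 and 0.91 with sh1088, and pCDH 0.85 and 0.80. These are descriptions across genes of single libraries.

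The median log2 ratio over 457 protein-coding genes of chromosome 16 was 0.30, and over 675 of chromosome 2 it was 0.21, where that of all chromosomes was 0.07. Over sh1088 the chromosome 16 median was 0.35 in pCDH, 0.17 in R1A and 0.14 in the sh control, so every other library lay above sh1088 there and pCDH more than sh1196. On chromosome 2 these medians were -0.16, -0.003 and -0.09. On chromosome 16, 11.4% of genes were at least 2-fold higher and 2.41% lower. The window of 60000001 to 70000000 on that chromosome had the highest median of all windows of this size with at least 20 genes, 0.51 over 59 genes, where pCDH had 0.45, R1A 0.30 and the sh control 0.27 over sh1088. The next window, 70000001 to 80000000, had 0.43 over 39 genes. Without the coding length trend the chromosome 16 median was 0.23 and that of chromosome 2 was 0.11.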

How the data were processed

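The 5 A549 libraries were profiled by sequencing. The authors deposited RSEM expected counts (estimated counts per gene), TPM and FPKM, per the file headers. Tools named, with no role, in the submitters' processing notes are STAR 2.4.2, Bowtie, DESeq2 and RSEM 1.3.1. No label or header used here gives the build or gene models the authors mapped to. The authors' tables of comparisons were not used.

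Expected counts were rounded and scaled by TMM of edgeR 4.0.16 in R 4.3.3, over the 2 hairpin libraries for ratios and over all 5 for the CPM printed by library. These scales differ by 0.643% in the ratio. Genes with mean CPM of at least 5 in the 2 hairpin libraries were compared. Ratios have exact conditional 95% counting intervals (scipy 1.17.1), and a count of 0 was set to 3 counts. Of 58929 identifiers 58656 matched GENCODE 29 (GRCh38) and 273 did not. Coding length, GC content and overlaps come from that release, and trends were taken out by lowess (statsmodels 0.14.6, fraction 0.3). Ratios and intervals were checked on simulated counts with counting error alone, from the same mean profile in both libraries apart from a set of changed genes. That check could not show the effect of the difference in make-up or of noise beyond counting. The members and the 36 gene lists were chosen with earlier results of these data known. Named genes were RBMS1, SLC7A11, SLC3A2, GPX4 and EIF3D, the 14 protein-coding genes in each direction ranked by the interval bound nearest to 0, the largest first, among those with no overlap on their strand, 4 other genes in each direction, and up to 4 members a list plus up to 2 past 2-fold the other way. Further genes (families, list members, markers) were named after their values were seen. Some genes that the rule selects are not reported here. Just inside the filter lay SVEP1 and FBXL19-AS1 at a mean CPM of 5.01, with log2 ratios of -3.02 and -0.63. Just outside lay NOMO2 and PRMT9, with 2.10 and 1.57.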

Additional observations from a re-analysis of the deposited data

How the results depend on the processing

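For genes past 2-fold, alternatives moved their number more than their direction, which the scalings of counts used here could not reverse. The counts of higher and lower genes were 688 and 712 by TMM. They were 3014 and 233 with total counts as library size, 3384 and 117 in TPM + 1, 3048 and 190 in FPKM + 1, and 4470 and 168 in TPM + 0.1. They were 1176 and 1418 with a mean CPM of at least 1, 350 and 340 with at least 20, and 4266 and 4794 with no filter and a prior count of 0.5. Without genes that overlap on the same strand they were 418 and 442, and with the whole 95% counting interval past 2-fold 313 and 409. With the coding length trend taken out (chosen after seeing the data) there were 352 higher genes. DESeq2 size factors, TMM over protein-coding genes, the GC trend and protein-coding genes alone left both counts within 1.5 times.

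Of the 121 genes past 2-fold that the naming rule selects, MRPS17 changed sign, to 0.11 in TPM + 1 and 0.14 in TPM + 0.1. Of genes named outside that rule, MUC13 changed sign in TPM and CHORDC1 in TPM and FPKM. A scaling of counts shifts all genes alike. For the 35 lists with at least 3 members, the median relative to that of all genes could therefore not change with it. The median of selenoproteins minus that of all genes, -0.58, became 0.034 with the coding length trend taken out. Other list medians also went from below to above that of all genes with this trend taken out. These were small, large and mitochondrial ribosomal proteins, cytosol-made respiratory subunits, histones and NF-kB genes. The RNA interference machinery went from above to below. In TPM + 1 the median of G2/M genes minus that of all genes, 0.77, became 0.52. No paired analysis was possible because each hairpin is 1 library, and no library could be left out of a comparison of 1 against 1. Spread between cultures is therefore unknown, and counting intervals understate the error.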
